A study of Mus musculus with 6 samples.

Results

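Secreted proteins of the acute phase and of innate defence were followed through 8 genes: Lcn2, the serum amyloid A genes Saa3, Saa1 and Saa2, C3, Slpi, Cp and Hp. The comparison set E0771-HML2 cells against the E0771 cells they came from. HML2 is a population, not described as a clone, of cells that had spread to the lung of C57BL/6 mice after injection of E0771 into the mammary fat pad and were taken back into culture, a passage that was made more than once. Parental E0771 is the unselected line, from a mammary tumour of the same mouse strain. Each was represented by 3 cultures, called biological replicates in the labels and kept for 3 days in DMEM with 10% serum and antibiotics. RNA of each culture was read on 1 Affymetrix Mouse Genome 430 2.0 array, as 1 signal per probe set. Whether different animals stand behind the HML2 cultures is not stated, and a p-value therefore reflects variation among cultures, which may be technical. All values describe cells in a dish.

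The genes were named with earlier results of these data known, and where a gene had several probe sets, as Saa1 and Cp did, the one that stands for it was chosen by the highest mean log2(signal + 50) over all 6 arrays. The array annotation gave a probe set for 7 of the 8 genes, out of 18193 genes with a probe set of 1 gene symbol; it listed none for C3, which was not analysed here. The mean signals, which decided what was tested, were 1224 for Lcn2, 913 for Saa3, 2458 for Slpi, 113 for Cp, 21.8 for Saa1, 21.4 for Saa2 and 5.67 for Hp. Genes were tested where the mean signal over 6 arrays reached 100, which Cp passed narrowly and Saa1, the next below, missed, so that 4 of the 7 genes stood among the 9361 tested. Lcn2, Saa3 and Cp had parental means below 100 and passed through their HML2 signals alone.

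The acute phase is the change in secreted proteins that follows infection or injury. The liver is its main source, but epithelial cells and macrophages make several of the same proteins when interleukin-1, interleukin-6, TNF or interleukin-17 act on them through NF-kB, STAT3 and C/EBP transcription factors. Lcn2 (lipocalin 2) binds bacterial and mammalian siderophores and so withholds iron, the serum amyloid A proteins travel on high-density lipoprotein and attract leucocytes, Slpi inhibits neutrophil serine proteases, Cp (ceruloplasmin) is a copper-carrying ferroxidase and Hp (haptoglobin) captures free haemoglobin. In breast tissue Lcn2 and Slpi are known as products of epithelial cells.

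RefSeq promoters (GRCm38.p6) were at hand for 6 of the 7 genes and not for Hp. The 250 bases before each gene's start were searched on both strands for 4 motifs. These were TTGCNNAA for C/EBP, TTCNNNGAA for STAT factors, TGANTCA for AP-1 and the degenerate 10-base NF-kB consensus. The C/EBP letters were found in each of the 6 genes, once per gene, and stand in 9.56% of all 32851 promoters of this length. AP-1 letters were found before 1 of the 2 listed starts of Cp, the one that lacks the C/EBP letters, and in 6.75% of all promoters. STAT letters (7.02% of all) and the NF-kB consensus (3.9%) were not in these windows. The matches do not overlap each other and are a description of the sequence, not evidence that a factor binds. The 4 promoters below belong to the 4 genes that were tested, with the C/EBP letters in capitals; in Saa3, Slpi and Cp these lie on the opposite strand, so the capitals there are the reverse complement of the motif. They are chr2:32387740-32387989 for Lcn2, chr7:46715677-46715926 for Saa3 and chr2:164356508-164356757 for Slpi, all on the minus strand, and chr3:19956999-19957248 on the plus strand for the second listed start of Cp.
Lcn2: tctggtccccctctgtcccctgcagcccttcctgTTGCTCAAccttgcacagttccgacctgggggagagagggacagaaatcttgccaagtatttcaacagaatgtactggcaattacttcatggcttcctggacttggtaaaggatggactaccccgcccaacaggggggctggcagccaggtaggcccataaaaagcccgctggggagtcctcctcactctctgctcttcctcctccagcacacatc
Saa3: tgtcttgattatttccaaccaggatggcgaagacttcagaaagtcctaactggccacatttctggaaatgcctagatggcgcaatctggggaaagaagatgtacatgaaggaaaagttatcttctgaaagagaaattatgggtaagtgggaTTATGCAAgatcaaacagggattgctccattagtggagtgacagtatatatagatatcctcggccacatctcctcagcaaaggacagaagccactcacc
Slpi: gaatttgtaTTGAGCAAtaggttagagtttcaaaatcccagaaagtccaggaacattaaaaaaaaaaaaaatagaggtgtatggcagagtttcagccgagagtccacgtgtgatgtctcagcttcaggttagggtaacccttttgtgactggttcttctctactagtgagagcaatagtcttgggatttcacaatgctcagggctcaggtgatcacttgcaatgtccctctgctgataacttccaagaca
Cp: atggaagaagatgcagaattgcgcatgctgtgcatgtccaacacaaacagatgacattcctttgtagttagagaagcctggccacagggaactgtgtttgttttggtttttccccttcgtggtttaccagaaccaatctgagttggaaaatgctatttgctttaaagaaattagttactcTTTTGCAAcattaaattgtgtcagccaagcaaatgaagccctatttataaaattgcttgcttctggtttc
The match ends 209 bases before the start of Lcn2, 92 before that of Saa3, 234 before that of Slpi and 63 before that start of Cp. In Saa1 and Saa2 the letters found are TTGCACAA, and they end 175 bases before the start of Saa1 and 176 before that of Saa2.

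On the arrays, 2 of the 7 genes stood out: Lcn2 and Saa3 were low in parental cells and high on all HML2 arrays. Slpi was expressed by both populations, with HML2 above parental at each replicate number. Its groups overlapped, and the unpaired test did not call it. Cp was a weak signal, higher in HML2 for its chosen probe set, by a call that depended on the processing and on single arrays. Saa1, Saa2 and Hp gave signals near background in both. Bacterial tryptophan control probe sets, which have no target in mouse RNA, read 1.97 to 36.2 and mark that background.

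**Figure D1:**
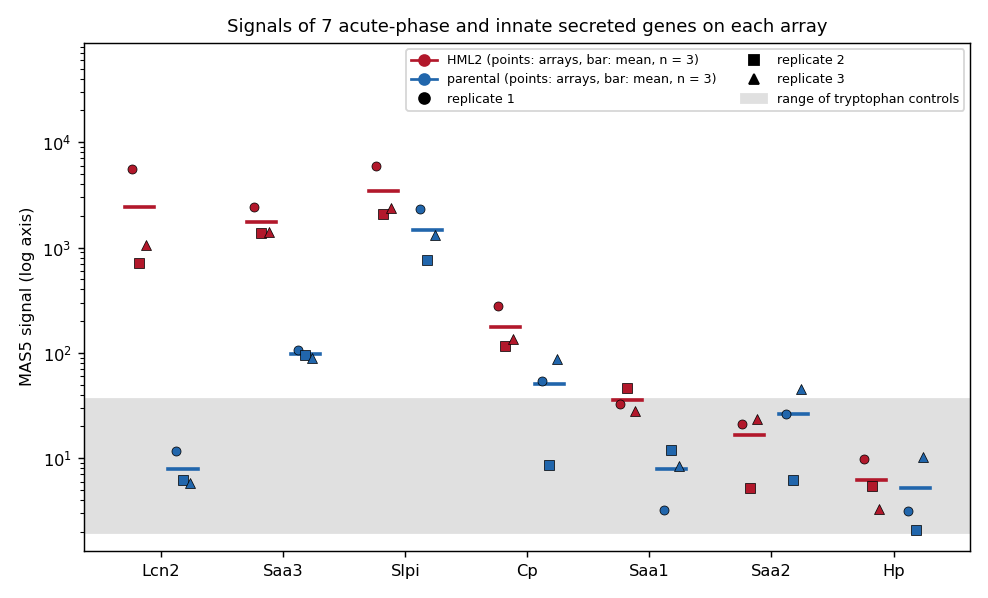
Signal of the chosen probe set of 7 genes on each of the 6 arrays (log axis), HML2 in red and parental in blue, with bars at the mean of 3 arrays and a grey band for the range of the tryptophan controls, 1.97 to 36.2. Lcn2 in parental cells, and most Saa1, Saa2 and Hp signals, lie in the band, and the HML2 replicate 1 point of Lcn2 (5562) and Slpi (5896) stands above the other HML2 points.

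Lcn2 had signals of 5562, 711 and 1049 in HML2 replicates 1, 2 and 3, against 11.6, 6.26 and 5.84 in parental replicates 1, 2 and 3. The groups did not overlap, HML2 replicate 1 was far above its companions, and every parental array read below the highest tryptophan control of its own array. The means were 2441 ± 2709 in HML2 and 7.90 ± 3.21 in parental cells (SD, n = 3 each). The fitted log2 difference, HML2 minus parental, was 4.86 ± 0.62 (SE; limma, Benjamini-Hochberg adjusted p = 0.0011 over 9361 genes). Since the parental level is only a bound, the parental arrays were set at the highest tryptophan control of the array. The ratio of the groups' geometric mean signals, HML2 over parental, was then at least 67.8, or at least 36.4 without HML2 replicate 1. The difference was 3.98 without that array (adjusted p = 6.4e-06; 2.2e-07 to 0.0093 over all alternatives).

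Saa3, the serum amyloid A gene that mouse epithelial cells and macrophages express outside the liver, had signals of 2405, 1385 and 1400.2 in HML2 replicates 1 to 3, against 106, 94.9 and 88.4 in parental replicates 1 to 3. All 3 parental arrays lay close together and above the tryptophan controls, so here the lower level was measured. The log2 difference was 3.56 ± 0.22 (adjusted p = 3.6e-05), and the ratio of mean signals was 17.9. HML2 replicate 1 was 1.73 times the mean of the other HML2 arrays, a smaller excess than the 6.32 times of Lcn2. Without it the difference was 3.30 (adjusted p = 3.1e-06; 5.7e-09 to 7.7e-04 over all alternatives).

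The acute-phase genes Saa1 and Saa2, which the liver secretes into plasma, gave low signals. The Saa1 probe set read 32.5, 46.4 and 28.3 in HML2 replicates 1 to 3, against 3.21, 12.05 and 8.44 in parental replicates 1 to 3. The groups did not overlap, and the HML2 arrays were above and the parental arrays below the highest tryptophan control of each array. With that control as the parental level, the ratio of geometric mean signals, HML2 over parental, was 1.47. HML2 replicates 1 and 3 lay within the control range over all arrays (1.97 to 36.2), so this ratio is not a firm lower bound. It was under the signal filter, so the main comparison did not test it. Without a filter its log2 difference was 0.56 ± 0.15 (limma, adjusted p = 0.041 over 18193 genes). The size of the difference depended on the offset, at 1.12 with an offset of 16 and 0.33 with 100. A further Saa1 probe set, whose sequence is filed under Saa1, read 0.685 to 7.48 in HML2 and 1.97 to 5.11 in parental cells. No array exceeded its highest tryptophan control there. The Saa2 probe set read 20.9, 5.23 and 23.7 in HML2, against 26.6, 6.26 and 45.9 in parental cells, with overlap between the groups. Saa1 and Saa2 are near-identical copies and their probe sets can share targets: the sequence behind the chosen Saa1 probe set is filed under Saa2 in the RefSeq table, so which of the pair gave its signal cannot be told.

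Slpi was well above background in both populations and differed between cultures of each. Its signals were 5896, 2092 and 2353 in HML2 replicates 1 to 3, against 2343, 756 and 1305 in parental replicates 1 to 3. The groups overlapped, since parental replicate 1 exceeded HML2 replicate 2, and replicate 1 was the highest array of both groups, at 2.65 times the mean of the others in HML2 and 2.27 times in parental cells. The means were 3447 ± 2125 in HML2 and 1468 ± 806 in parental cells (SD, n = 3 each), and the log2 difference of 1.18 ± 0.46 did not pass the unpaired test (adjusted p = 0.090). Between arrays with the same number the HML2 signal was 2.52, 2.77 and 1.80 times the parental signal for numbers 1, 2 and 3. With a block for the replicate number the difference was 1.18 ± 0.14 and was called (adjusted p = 7.8e-04; 7.8e-04 to 0.26 over all alternatives). It was also called without both arrays numbered 1, at 1.12, without parental replicate 1, at 1.58, and with array weights, at 0.84. The lowest difference was 0.72, without HML2 replicate 1, which was not called (adjusted p = 0.14).

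**Figure D2:**
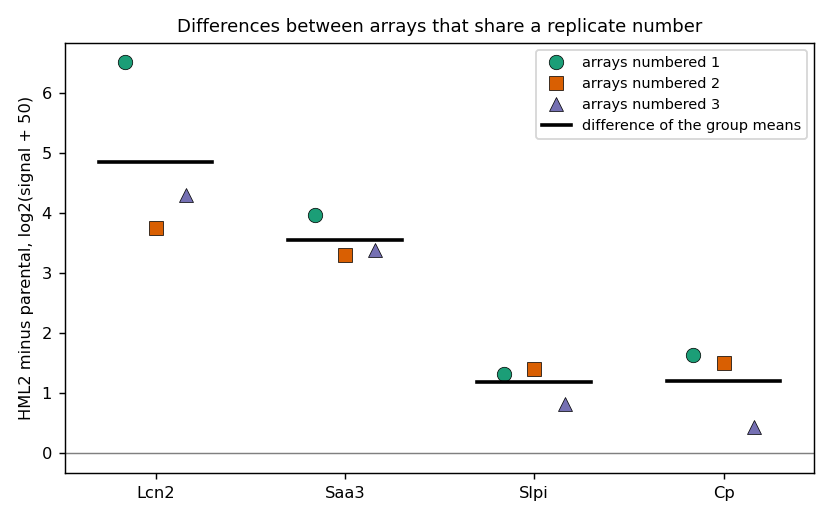
Difference HML2 minus parental on the log2(signal + 50) scale between arrays that share a replicate number, for the 4 tested genes, with a line at the difference of the group means. All 12 points are above 0; Lcn2 ranges from 3.76 to 6.51, whereas Slpi stays between 0.83 and 1.41.

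Cp gave a weaker and less even signal. Its chosen probe set read 277, 116 and 137 in HML2 replicates 1 to 3, against 54.5, 8.68 and 87.1 in parental replicates 1 to 3. The groups did not overlap, and parental replicate 2 lay below the highest tryptophan control of its array. The log2 difference of 1.20 ± 0.36 passed the test narrowly (adjusted p = 0.041; 0.012 to 0.11 over all alternatives). It was 0.90 and not called without HML2 replicate 1, and 0.85 and not called without parental replicate 2. The call was also lost without HML2 replicate 3 (1.30) or parental replicate 1 (1.27), without both arrays numbered 1 (0.97), and when genes were tested without a signal filter (1.20).

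The annotation ties 8 probe sets to Cp, and not all of them separated the groups. A probe set beside the chosen one read 121, 67.4 and 65.6 in HML2, against 24.5, 10.6 and 68.3 in parental cells, where parental replicate 3 was above HML2 replicates 2 and 3. Yet another, with 75.6, 60.0 and 37.9 in HML2, against 3.44, 36.5 and 37.5 in parental cells, did not overlap by a small margin. The other 5 averaged 3.37 to 36.4 in HML2 and 9.45 to 32.5 in parental cells, close to the highest tryptophan control (36.2) or below it, and their log2 differences ran from -0.36 to 0.18. Which transcripts of Cp each probe set detects was not tested.

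**Figure D3:**
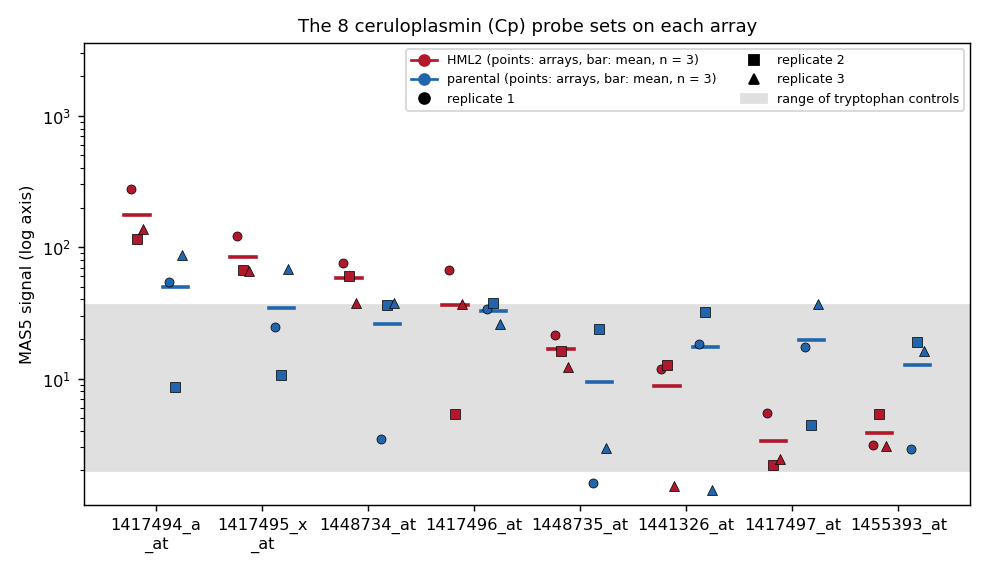
Signal of the 8 Cp probe sets on each array (log axis), ordered by mean level, with HML2 in red, parental in blue, bars at the mean of 3 arrays and the tryptophan control range in grey. The chosen probe set, at the left, is the one with a mean signal over 6 arrays above 100 (113), and 5 probe sets have group means of at most 36.4, at the top of the grey band or inside it.

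Hp, for haptoglobin, was at background throughout. It read 9.74, 5.40 and 3.30 in HML2 replicates 1 to 3, against 3.16, 2.09 and 10.3 in parental replicates 1 to 3, and no array exceeded its tryptophan control. The groups overlapped, and at this signal a difference could not be detected.

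Of the 4 genes tested, 3 were called higher in HML2 and 0 lower, where 12.3% of all genes tested were called higher. The groups did not overlap for the same 3 genes, and HML2 lay wholly above parental for 20.6% of all genes. These counts describe the named genes and support nothing further, because the genes were picked with results in view and each of the 3 passed the filter through its HML2 signal. With the replicate number as a block 4 of the 4 were called higher (17.8% of all genes), and without HML2 replicate 1 it was 2 of the 4, Lcn2 and Saa3 (16.8% of all genes).

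**Figure D4:**
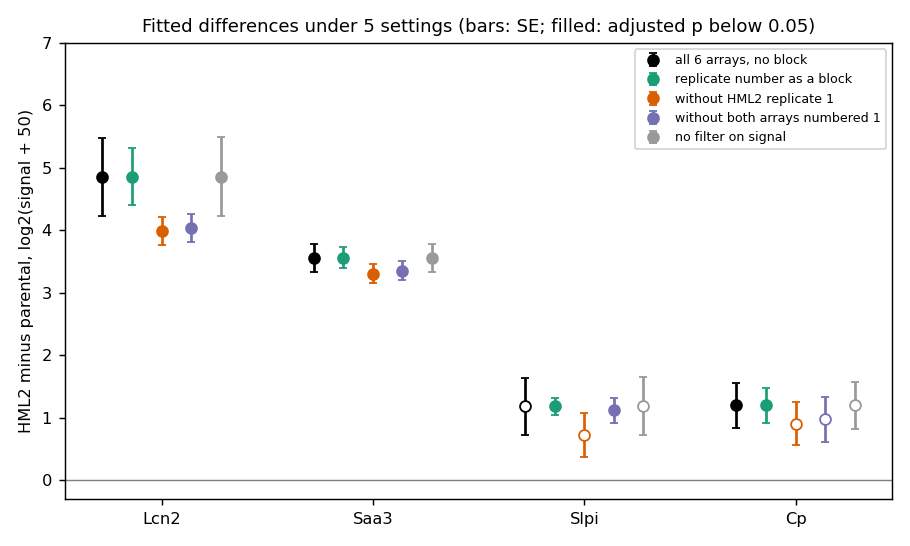
Fitted difference HML2 minus parental with its SE for the 4 tested genes under 5 settings, filled where the adjusted p was below 0.05. Lcn2 (3.98 to 4.86 here) and Saa3 (3.30 to 3.56) are called under each setting shown, Slpi with the block and without both arrays numbered 1, and Cp with all arrays and with the block.

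The excess of replicate 1 differed between genes. On the log2 scale HML2 replicate 1 exceeded the mean of its companions by 2.62 for Lcn2, 1.39 for Slpi, 0.89 for Cp and 0.77 for Saa3, while over all genes tested the median excess was 0.01 and the 95th percentile 0.87. Parental replicate 1 was above the other parental arrays by 1.19 for Slpi, but by only 0.14 for Lcn2, 0.14 for Saa3 and 0.22 for Cp, where the median of all genes was 0.02 and the 95th percentile 0.59. Slpi was thus high on replicate 1 of both populations and Lcn2 on that of HML2. Parental Lcn2 lay below the highest tryptophan control on every array, so an excess of parental replicate 1 could not be measured for it. What the number stands for is not given in the labels.

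Genes with the nearest profiles over the 6 arrays were found by the root mean square distance between profiles centred on their own mean log2 value. Nearest to Lcn2 were the chemokine genes Cxcl2 (distance 0.52), Cxcl1 (0.68) and Ccl20 (0.70). Cxcl2 had signals of 3110.2, 578 and 696 in HML2, against 36.0, 17.9 and 28.9 in parental cells, with HML2 replicate 1 the highest array as for Lcn2. Nearest to Saa3 were Galnt3, an enzyme of mucin-type glycosylation (0.10), Acap1 (0.30) and the uridine phosphorylase gene Upp1 (0.40). Nearest to Slpi were 2 other chemokine genes, Ccl5 (0.14) and Ccl7 (0.18), and Spata24 (0.19). Ccl5 had signals of 1357, 367 and 406 in HML2, against 480, 93.9 and 243 in parental cells, with replicate 1 the highest of each group as for Slpi. These genes were picked for likeness over the same 6 arrays, so a shared highest array follows from the choice. A distance compares the shape of 6 values and says nothing of a shared cause.

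Other genes of the acute phase mostly gave low signals. Of 27 such plasma protein genes on the array, 25 were under the filter, with mean signals of 2.16 to 50.6, and 11 of the 25 did not exceed 36.2 on any array. Alb, the main plasma protein that hepatocytes make, averaged 16.1 in HML2 and 10.7 in parental cells. Crp, the C-reactive protein of the acute phase, averaged 21.6 in HML2 and 20.9 in parental cells. For 2 of the 25, neither of them tested, the groups did not overlap. Without a signal filter HML2 lay wholly above parental for 2420 and wholly below for 3024 of 18193 genes, so such a pattern is common. Il1rn, the interleukin-1 receptor antagonist, read 53.6, 47.9 and 60.6 in HML2, against 18.4, 22.2 and 26.2 in parental cells. Hpx, or haemopexin, which binds free haem, read 15.0, 16.7 and 8.52 in HML2, against 53.0, 58.9 and 40.4 in parental cells. The metallothionein genes Mt1 and Mt2, whose products bind zinc and copper, were the 2 tested. Mt1 averaged 21110 ± 4073 in HML2 and 14224 ± 3932 in parental cells, a difference of 0.59, and Mt2 had a difference of 0.74; neither passed the unpaired test (adjusted p = 0.076 and 0.083). Both were called with the replicate block (adjusted p = 6.3e-04 and 0.018).

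Among receptors and partners of these proteins, 5 of 11 tested were higher and 1 lower in HML2, with a median difference of 0.97 (-0.02 over all genes), where 12.3% and 14.9% of all genes were called in these directions. With the replicate block it was 7 higher and 1 lower, where 17.8% and 19.6% of all genes were called. Lrp2, the endocytic receptor megalin that takes up Lcn2, had signals of 541, 443 and 506 in HML2, against 19.3, 74.0 and 32.7 in parental cells, a difference of 2.61 ± 0.24 (adjusted p = 2.1e-04). The groups were far apart, and Lrp2, like Itgb2 and Mmp9, passed the filter through its HML2 signal. Slc22a17, the other receptor known for Lcn2, averaged 48.6 in HML2 and 40.8 in parental cells and was not tested. Mmp9, a gelatinase that binds LCN2 in human neutrophils, averaged 305 ± 53.6 in HML2 and 75.9 ± 19.6 in parental cells (1.50 ± 0.20), and Itgb2, the beta chain of a receptor for complement C3 fragments, had a difference of 1.86 ± 0.32. Plscr1, a phospholipid scramblase that binds SLPI in human cells, averaged 1988 ± 248 in HML2 and 796 ± 127 in parental cells. Cd14, a co-receptor for lipopolysaccharide, was the fifth, with 0.97. The endocytic receptor gene Lrp1 was lower, by a difference of -0.97. Fpr2, a receptor for serum amyloid A, was under the filter, with means of 14.4 in HML2 and 29.1 in parental cells. So was C3ar1, the receptor for the C3a fragment, with 25.6 in HML2 and 23.7 in parental cells.

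Cytokine receptors and transcription factors that act upstream of acute-phase genes went both ways. Of 19 tested, 4 were higher and 3 lower, with a median of -0.01, where 12.3% and 14.9% of all genes were called. With the replicate block it was also 4 higher and 3 lower, where 17.8% and 19.6% of all genes were called. Cebpd, a C/EBP family factor, had signals of 1737, 585 and 617 in HML2, against 214, 334 and 322 in parental cells. The groups did not overlap, HML2 replicate 1 was again the highest array, and the difference of 1.44 ± 0.38 (adjusted p = 0.023) was 0.95 without that array; its call was lost without any 1 of the parental arrays. Cebpb, of the same family, averaged 5364 ± 2018 in HML2 and 4258 ± 739 in parental cells and did not pass the test (0.28, adjusted p = 0.43). Nfkbiz, a nuclear co-factor of NF-kB that Lcn2 induction needs in mouse cells, had a difference of 1.36 ± 0.29 (adjusted p = 0.0095), which was not called when the probe sets of each gene were averaged. Il17ra (0.83), a receptor chain for interleukin-17, and the adaptor gene Myd88 (0.91) were also higher. Osmr (-1.34), the oncostatin M receptor, Irak1 (-1.13), a kinase of interleukin-1 receptor signalling, and Il1r1 (-0.75), the interleukin-1 receptor itself, were lower; the call of Il1r1 was lost without parental replicate 3. Stat3 averaged 571 ± 90.6 in HML2 and 735 ± 38.9 in parental cells and was not called (-0.35, adjusted p = 0.13). Its groups did not overlap, and it was called lower without HML2 replicate 1 (-0.46, adjusted p = 0.022), without both arrays numbered 1, and with array weights.

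Complement genes other than C3 numbered 0 higher and 3 lower of 9 tested, with a median of -0.60. Over all genes 12.3% were called higher and 14.9% lower. Masp1, a protease of the lectin pathway, read 66.5, 12.4 and 24.9 in HML2, against 1358, 727 and 823 in parental cells. It was above the highest tryptophan control on 1 of the 3 HML2 arrays and passed the filter through its parental signal. The fitted difference was -3.59 ± 0.29 (adjusted p = 1.3e-04), in which the HML2 level is in part only background. Clu, or clusterin, an inhibitor of the terminal complex, averaged 3376 ± 1046 in HML2 and 8405 ± 2238 in parental cells (-1.32), and Cd59a, another inhibitor of that complex, had a difference of -0.79. The call of Cd59a was lost when HML2 replicate 2 or 3 or parental replicate 1 or 2 was left out. With the replicate block the count was 1 higher and 6 lower, where 17.8% and 19.6% of all genes were called in these directions.

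Slpi belongs to the whey acidic protein (WAP) domain family. Of 6 tested genes of that family and of other secreted antimicrobial proteins, 1 was higher and 2 were lower, with a median of -0.52. Of all genes 12.3% and 14.9% were called in these directions. With the replicate block it was 1 higher and 3 lower, where 17.8% and 19.6% of all genes were called. Wfdc2, a WAP-domain protein of epithelial secretions, had signals of 3961, 3410.4 and 3138 in HML2, against 971, 424 and 563 in parental cells. The groups were well apart, with a difference of 2.41 ± 0.26 (adjusted p = 4.9e-04). S100a8, a calprotectin subunit, averaged 807 ± 246 in HML2 and 3144 ± 2612 in parental cells (-1.62), with 6116 in parental replicate 1, and was not called without that array (-0.99). Its call was also lost without HML2 replicate 2 or 3 or parental replicate 3, without a signal filter or an intensity trend, and with median centring. S100a9, the other calprotectin subunit, was under the filter, with means of 3.28 in HML2 and 27.3 in parental cells, both within the range of the controls. The lysozyme gene Lyz2 averaged 78.9 ± 8.29 in HML2 and 192 ± 28.9 in parental cells (-0.91). It passed the filter through its parental signal. Of 11 other lipocalins on the array, Rbp4, the retinol carrier, was the 1 tested, with a difference of -0.04 (adjusted p = 0.90).

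Genes that handle iron, haem and copper beside Lcn2, Cp and Hp gave 2 higher and 1 lower of 9 tested, with a median of -0.08. Over all genes 12.3% were called higher and 14.9% lower. Hmox1, which breaks down haem, averaged 991 ± 381 in HML2 and 448 ± 32.1 in parental cells, a difference of 1.01 that was not called without parental replicate 3. Slc11a2, a ferrous iron transporter, had a difference of 0.97, which was not called when probe sets were averaged. Bdh2, an enzyme reported to make the mammalian siderophore that Lcn2 binds, averaged 111 ± 22.5 in HML2 and 257 ± 86.4 in parental cells (-0.91); this call was lost without HML2 replicate 2 or 3 or parental replicate 1 or 3, and without a signal filter. With the replicate block 4 were higher and 2 lower, again where 17.8% and 19.6% of all genes were called.

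**Figure D5:**
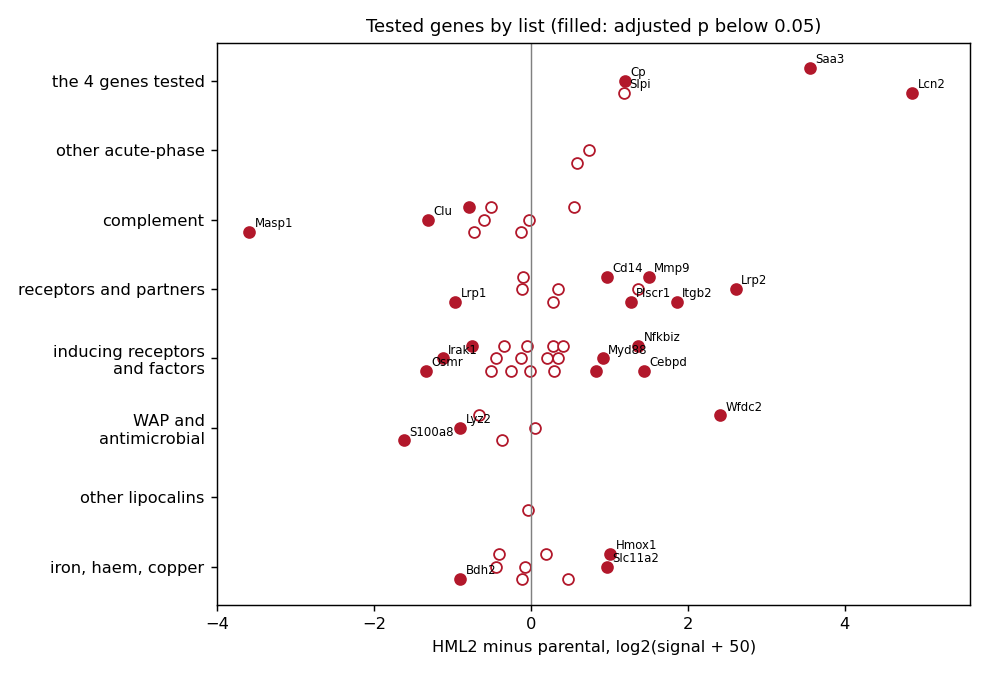
Fitted difference HML2 minus parental of every tested gene of the lists, 1 row per list, filled where the adjusted p was below 0.05. Lcn2 (4.86) and Saa3 (3.56) lie to the right of every related gene plotted, of which Lrp2 (2.61) and Wfdc2 (2.41) come next, and Masp1 (-3.59), with 1 of 3 HML2 arrays above background, lies farthest to the left.

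Marker genes of other cells that make these proteins were read on the same arrays, and their part in the results was not tested. In bulk RNA a change in the share of a cell type cannot be told from a change in RNA per cell. Of 9 hepatocyte markers on the array 0 had a mean signal of 100, and their summed signal was 93.0 to 222 in HML2 and 118 to 181 in parental cells. Of 8 neutrophil markers 1 reached 100, S100a8, and the sum was 677 to 1236 in HML2 and 1364 to 6289 in parental cells; Mpo averaged 48.7 in HML2 and 21.2 in parental cells and Elane 45.0 in HML2 and 51.1 in parental cells. Of 10 macrophage and general leucocyte markers 4 reached 100. Of these Cd14 (0.97) and Laptm5 (1.80) were higher in HML2, Lyz2 was lower (-0.91) and Csf1r was not called (-0.23). The list had sums of 2047 to 2165 in HML2 and 914 to 1093 in parental cells, and the pan-leucocyte gene Ptprc averaged 8.71 in HML2 and 5.24 in parental cells. Lung epithelial markers had 1 of 10 at 100, Sftpb, with sums of 231 to 344 in HML2 and 248 to 387 in parental cells. Mammary epithelial markers had 3 of 12 at 100, Krt8, Epcam and Esr1, with sums of 4073 to 5308 in HML2 and 1712 to 1899 in parental cells, of which Krt8 was higher in HML2 (1.87) and Esr1 lower (-0.91). Krt18 averaged 86.0 in HML2 and 34.2 in parental cells, and the epithelial cadherin gene Cdh1 19.4 in HML2 and 22.9 in parental cells, within the range of the controls. The mammary markers Krt14, Krt19 and Gata3 averaged at most 14.4 in either population. Fibroblast markers had 3 of 10 at 100 and summed to 1626 to 2853 in HML2, against 24009.5 to 29783 in parental cells. In parental cells, but not in HML2, Col3a1 made most of the sum. Of the 3 markers 0 were called higher and 2 lower in HML2, with Col3a1 at -5.18. Adipocyte markers had 0 of 6 at 100 and summed to 131 to 185 in HML2 and 68.1 to 176 in parental cells, and endothelial markers had 1 of 10 and summed to 669.6 to 805 in HML2 and 621 to 856 in parental cells. On each array 39.7 to 41.6% of probe sets read 100 or more. The ratio of 3' to 5' signal of Actb, a gauge of RNA integrity, was 1.36 to 1.39 in HML2 and 1.41 to 1.53 in parental cells (exact two-sided permutation p = 0.1, the smallest that 3 against 3 arrays allow), and that of Gapdh 0.770 to 0.816 in HML2 and 0.799 to 0.803 in parental cells (exact permutation p = 0.7).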

How the data were processed

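The authors deposited intensities on a linear scale, computed with MAS5 according to the submitters' processing notes, with a version not given in the sources used here. The mean left after removing 2% of probe sets at each end was 500 on all 6 arrays, so a difference in total messenger RNA between the populations would not be seen. The table has 45101 probe sets and no detection calls. Array symbols (annotation of 2016) were updated through a RefSeq table of GRCm38.p6, and coordinates are those of RefSeq promoters only. A gene was tested where a probe set had a mean signal of 100 or more, and the one of these with the highest mean log2(signal + 50) stood for it; genes with none are described by the highest of all their probe sets. On that scale HML2 was set against parental in limma (version 3.58.1, under R 4.3.3; intensity trend, no covariate), with Benjamini-Hochberg adjustment over 9361 genes and calls at 0.05. Differences on this scale understate changes of low signals. The procedure was tested on simulated data. The number of arrays limits the precision.

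The members and gene lists were chosen with earlier results of these data known. Related genes were named by a rule: for each list the called genes of largest difference, at most 4, or the brightest tested genes where fewer than 2 were called, and the 3 nearest profiles of Lcn2, Saa3 and Slpi. Alb, Crp, Il1rn, Hpx, Csf1r, Slc22a17, Cd14, Lrp1, Fpr2, C3ar1, Cebpb, Mpo, Elane, Ptprc, Laptm5, Col3a1, Sftpb, Krt8, Epcam, Esr1, Krt14, Krt18, Krt19, Gata3, Cdh1, Il17ra, Myd88, Il1r1 and Stat3 were added after their values were seen, to complete counts or give a known counterpart. Itgam, Itgax and S100a9 were added in the same way. For each list of cell type markers the count above a signal of 100 and the summed signal were taken.

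Deviations from the group means, correlated across genes, were 0.45, 0.34 and 0.24 between arrays with the same number, all above the bound of 0.1 used to treat numbers as pairs, though the labels do not say what a number marks. HML2 replicate 3 had the same value with parental replicate 2. The number entered as a block in an alternative. Other alternatives were the offset, the filter, quantile or median normalization, the variance model, array weights, the probe set rule and leaving out each array.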

Additional observations from a re-analysis of the deposited data

How the results depend on the processing

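Lcn2 and Saa3 were called higher under all 19 alternatives, with differences of 3.98 to 6.10 and 3.18 to 3.91. No difference of the 4 tested genes changed sign. Cp was called in 12 of 18 alternatives (it was not tested where mean signals had to reach 200); without a signal filter it was not, at 1.20, and leaving out arrays gave 0.85 to 1.47. Slpi was called in 4 of 19: with the replicate number as a block (1.18), with array weights (0.84), and when parental replicate 1 was left out or both arrays numbered 1 were (the omission of both was added after the data were seen); leaving out arrays gave 0.72 to 1.58. The block changed no other call of these 4 genes. Called members numbered 2 to 4. Of 57 tested related genes, 12 were higher and 10 lower; with array weights it was 20 and 18, with the replicate block 19 higher, and leaving out arrays gave 10 to 19 higher and 7 to 17 lower. Over all 9361 genes tested, 1155 higher and 1395 lower became 2422 and 2631 with array weights and 590 and 795 without parental replicate 3. Without HML2 replicate 3, 715 were higher. With every probe set tested, 1857 were higher and 2306 lower, but out of 16412 probe sets. The causes were not tested. Median centring raised the share of calls that were higher to 57.2%, against 45.3% as deposited. Signals near the tryptophan controls limit what can be said of Saa1, Saa2, Hp, Lcn2 in parental cells and Masp1 in HML2.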
